A study of Mus musculus with 4 samples.

Results

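The genes described here are 35 genes of mitosis and the spindle, read on 60 probes of an expression array that carried 40628 gene probes for 29353 genes. They were chosen by name from 36 names, of which Cdk1 and its older name Cdc2a are the same gene. No threshold on a measured value was used, but earlier results of these data were known when the names were chosen. The same holds for the other gene lists used below. Every gene probe outside the array's controls that the files name for a member was taken, and no further probe came in through updated names. Of the 60 probes, 56 were kept for the tests and stood for all 35 genes. The 4 left out were the dimmer probes of Cdk1, Cenpf, Ect2 and Kif11, none of which passed the scanner software's background test on both arrays of a group.

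The RNA came from C3H10T1/2 cells, a mouse embryo fibroblast line, that had been transformed in culture. All 4 arrays used here hold RNA of such transformed cells, so no untransformed cells are in the comparison. Per the labels, flasks received 2.5 µg/ml of the carcinogen 3-methylcholanthrene (3MC) for 2 days, stood for 4 days in normal medium, were given 100 ng/ml of the tumour promoter TPA over 2 weeks and then spent 4 weeks in normal medium. The control group (2 arrays) had no further treatment named, and the phorone group (2 arrays) was exposed to phorone at 2 mM, an unsaturated ketone known to deplete glutathione. How long it lasted and in which vehicle it was given is not stated in the sources used here. Whether the 2 arrays of a group stand for separate cultures is not stated in the labels, so each p-value measures only the spread between these arrays, which may be technical. The comparison asks how transcript levels of mitosis genes differed between transformed cells with and without phorone.

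Mitosis begins when the kinase CDK1, bound to cyclin A or cyclin B, phosphorylates proteins of the nucleus and the cytoskeleton. Aurora and Polo kinases build the spindle, kinetochores attach chromosomes to its microtubules, and the checkpoint proteins MAD2, BUB1, BUBR1 and MPS1 hold back the anaphase-promoting complex (APC/C) until every chromosome is attached. CDC20 then activates the APC/C, cyclin B is destroyed, and the central spindle and contractile ring divide the cell. Most of these genes are transcribed mainly in late S, G2 and M phase, so that their transcripts are high in cycling cells and low in resting ones. The DREAM complex, B-MYB and FOXM1 control many of them through an element called the cell cycle homology region (CHR), and the factor NF-Y through CCAAT boxes.

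These promoter elements are shown first, because most members with a promoter window, though not all, hold at least 1 of them. RefSeq promoter windows (GRCm38.p6; 250 bases before to 50 bases after a gene's start) were found for 30 of the 35 members, with 32 windows, and were set beside all 32851 windows of 27025 genes in the same table. Aurkb, Ccna2, Foxm1, Kif20a and Tpx2 were without an entry. A CCAAT box (the letters CCAAT on either strand) lay in the 250 bases before the start in 25 member windows (78.1%), against 33.8% of all windows. At least 2 such boxes stood in 17 member windows (53.1%), against 10.1% of all. A pair spaced 30 to 35 bases apart, a spacing noticed only after the windows had been looked at, was found in 9 member windows (28.1%) against 1.47% of all.

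Members differed in the number of CCAAT boxes before the start, from 6 in Top2a and Ube2c to 1 in Plk1 and none in Mad2l1. The 120 bases before the start are shown for 4 members as examples, all with several boxes. These are Cdk1 and cyclins B1 and B2, which form the kinase that starts mitosis, and Cdc20, which ends it. Each is written 5′ to 3′ on the gene's own strand up to the base before the start, and capitals mark CCAAT or its reverse complement ATTGG, and TTTGAA, the CHR letters.
Cdk1, chr10:69352913-69353032, minus strand: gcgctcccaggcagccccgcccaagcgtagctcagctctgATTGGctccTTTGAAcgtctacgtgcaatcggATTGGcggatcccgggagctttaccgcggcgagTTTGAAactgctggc
Ccnb1, chr13:100786487-100786606, minus strand: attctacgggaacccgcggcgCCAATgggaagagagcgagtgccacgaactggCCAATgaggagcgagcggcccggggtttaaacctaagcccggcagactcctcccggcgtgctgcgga
Ccnb2, chr9:70421555-70421674, minus strand: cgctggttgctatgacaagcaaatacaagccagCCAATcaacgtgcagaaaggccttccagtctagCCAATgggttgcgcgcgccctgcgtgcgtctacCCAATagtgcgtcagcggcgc
Cdc20, chr4:118437344-118437463, minus strand: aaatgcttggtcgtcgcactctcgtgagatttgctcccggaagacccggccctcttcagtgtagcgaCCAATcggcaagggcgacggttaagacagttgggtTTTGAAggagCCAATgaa
The Cdk1, Ccnb1 and Ccnb2 stretches hold neighbouring CCAAT boxes 32 or 33 bases apart, while the 2 boxes of Cdc20 are 45 bases apart. Cdk1 has TTTGAA 15 and 71 bases before the start, and Cdc20 has it 18 bases before the start. Ccnb1 lacks TTTGAA but has the variant TTTAAA at position -42 from the start, left in lower case here.

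TTTGAA (either strand) stood before the start in 10 member windows (31.3%), against 16.0% of all windows, and in the 50 bases after the start in 17 member windows (53.1%), against 2.25% of all. Over the whole window it was in 25 member windows (78.1%) against 17.9% of all, and 22 member windows (68.8%) held both a CCAAT box before the start and TTTGAA, against 6.26% of all. The variant TTTAAA, which is its own reverse complement and was counted apart from TTTGAA, stood before the start in 18.8% of member windows and 12.1% of all windows. The first 30 bases after the start of 2 members show the position just past the start, with TTTGAA in capitals.
Ccnb2, chr9:70421525-70421554, minus strand: ggtaTTTGAAtcgcggaccgggcggtggac
Cenpf, chr1:189688057-189688086, minus strand: agTTTGAAtcgctcgtgctggtcggggagg
Members called with phorone were found with and without the motif. Of 23 members with TTTGAA in the window, 7 were called higher and 1 lower, with a median log2 fold change of 0.23; of 7 without it, 4 were called higher and 1 lower, with a median of 0.80. The 7 without TTTGAA include Ccnb1 and Birc5, which hold the variant TTTAAA before the start. A match is a description of these letters, not of a site in use.

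All signals below are log2 values minus the 75th percentile of the same array, so that 0 is the level of that percentile, and each change is the mean of the phorone arrays minus the mean of the control arrays on that log2 scale. A gene is given by its brightest kept probe, levels are compared only within a probe, and a gene was called higher or lower where the Benjamini-Hochberg adjusted p of limma, over all 17033 genes tested, was below 0.05. RNA of whole cultures cannot tell fewer dividing cells from less transcript in each cell.

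All 35 members were well above background on all 4 arrays. With phorone 12 were called higher, 3 lower and 20 neither, and the median change was 0.27, against 0.084 over all genes tested. The background was high in this comparison: 45.5% of all genes tested were called, 24.3% higher and 21.3% lower. Of the members 34.3% were called higher, somewhat above that background, and 8.57% lower, below it. These differences from the background were not tested, and the counts moved with the settings. The members had also been chosen with earlier results of these data known. Both phorone values lay above both control values in 19 members, and below both in 6, against 43.6% and 34.3% of all genes, and in 10 members the groups overlapped. Changes of the members were moderate, from -0.63 to 1.11. Only Ccnb1 and Anln were called with at least a 2-fold rise, where 8.03% of all genes were, and no member with a 2-fold fall, where 12.0% of all genes were.

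The number of members called leaned on single arrays and on the scaling. The counts that follow have no matching share of all genes beside them, so they show nothing particular to the members. Without control replicate 1, 11 members were called higher and 1 lower; without control replicate 2, 7 and 1; without phorone replicate 1, 6 and 0; and without phorone replicate 2, 3 and 1. Scaling on the spike-in probes in place of the 75th percentile raised every change by 0.43, moved the median of all genes to 0.52 and that of the members to 0.70, and left 9 members called higher and none lower. Those 9 included Ect2, and Ndc80, Tpx2, Cdk1 and Cenpf lost their call; 6 uncalled members with small negative changes (Ube2c, Hmmr, Foxm1, Cdca3, Kif11 and Racgap1) came out above 0. Aurka, Cdc20 and Ccnb1 stayed called higher under that scaling and with any single array left out. For Ccnb1 this rests on its brightest probe, and its probes at 0.18 and -0.24 were not called.

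**Figure D1:**
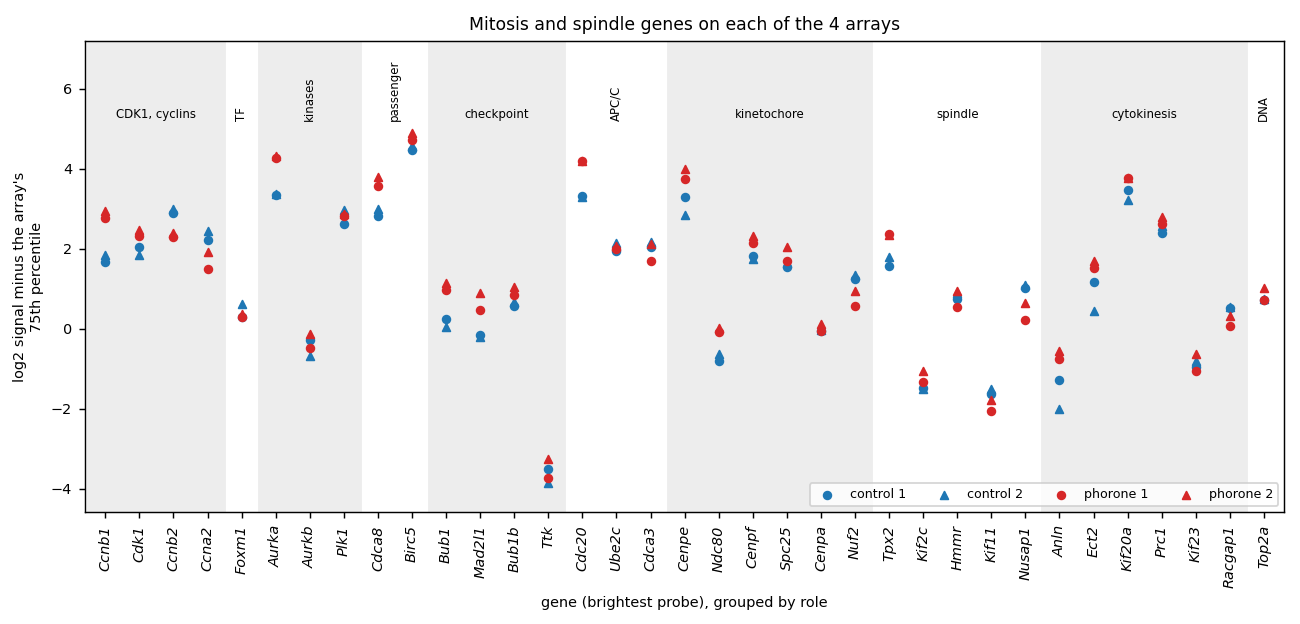
Signal of each of the 35 mitosis and spindle genes (brightest probe) on the 4 arrays, as log2 minus the array's 75th percentile, with genes grouped by role; blue marks control, red phorone, circles replicate 1 and triangles replicate 2. Red points lie clear above blue ones for Ccnb1, Aurka, Bub1 and Cdc20 and clear below them for Ccnb2, and the red triangle lies above the red circle in 34 of 35 genes.

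CDK1 and its cyclins moved in both directions. Here and below, counts by role cover few genes, and none was tested against the share of all genes called. Ccnb1, cyclin B1, read 1.66 and 1.84 in the control group and 2.78 and 2.94 in the phorone group. That is a rise of 1.11 (SE 0.14, limma adjusted p = 0.00389) and a 2.16-fold higher signal, with no overlap between groups. Ccnb2, cyclin B2, the sister cyclin that binds the same kinase, went the other way. It read 2.89 and 3.00 in control and 2.29 and 2.39 in phorone, a fall of 0.60 (SE 0.13, limma adjusted p = 0.0164). On these brightest probes the changes of the B cyclins lay 1.71 apart, whichever number is subtracted from an array as its scaling. The distance depended on the probe. Over the 10 pairs of a kept Ccnb1 probe with a kept Ccnb2 probe it ran from 0.36 to 1.95. Between the means over each gene's kept probes it was 1.33, with 0.62 for Ccnb1. Of the 5 kept Ccnb1 probes, 2 had the same sequence and counted separately. Ccna2, cyclin A2, which acts in S phase and early mitosis, read 2.21 and 2.44 in control and 1.50 and 1.91 in phorone and fell by 0.62 (SE 0.19, limma adjusted p = 0.0476). Cdk1 itself read 2.04 and 1.84 in control and 2.33 and 2.47 in phorone, a rise of 0.46 (SE 0.14, limma adjusted p = 0.0487). The calls of Ccna2 and Cdk1 sat at the threshold and were lost whichever array was left out, and that of Ccnb2 was lost without either phorone array. On the spike-in scale neither Ccnb2 (-0.17) nor Ccna2 (-0.19) was called.

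Foxm1, the transcription factor that drives many genes of this group, read 0.30 and 0.61 in control and 0.29 and 0.35 in phorone. Its groups overlapped and it was not called, with a change of -0.13 and a 95% confidence interval from -0.52 to 0.26. Top2a, the topoisomerase that untangles chromosomes, was not called either, at 0.13 (interval -0.25 to 0.51).

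Among the mitotic kinases 1 of 3 was called, where 45.5% of all genes tested were. Aurka, Aurora A, which matures centrosomes and builds the spindle poles, read 3.34 and 3.36 in control and 4.26 and 4.31 in phorone. Its replicates lay close together and far from the other group, and it rose by 0.94 (SE 0.12, limma adjusted p = 0.00394), a 1.91-fold higher signal. Plk1, the Polo kinase of mitotic entry and spindle assembly, read 2.62 and 2.96 in control and 2.83 and 2.87 in phorone. Its phorone values fell between its control values, and its interval ran from -0.35 to 0.47. Aurkb, the kinase of the chromosomal passenger complex, was not called at 0.18, with an interval from -0.33 to 0.70. Of its partners in that complex, Cdca8 (borealin) read 2.82 and 2.99 in control and 3.58 and 3.79 in phorone and rose by 0.78 (SE 0.14, limma adjusted p = 0.0113), a call lost without phorone replicate 2. Birc5 (survivin) read above control on both phorone arrays but was not called, at 0.28 (interval -0.05 to 0.62).

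Of 4 spindle checkpoint genes, 2 were called higher and none lower, where 24.3% and 21.3% of all genes tested were. Bub1, a kinase of the unattached kinetochore, read 0.24 and 0.03 in control and 0.96 and 1.13 in phorone, a rise of 0.91 (SE 0.14, limma adjusted p = 0.00734). Mad2l1, MAD2, the protein that binds and restrains CDC20, read -0.17 and -0.22 in control and 0.47 and 0.88 in phorone, a rise of 0.87 (SE 0.18, limma adjusted p = 0.0146). In both genes the phorone values lay above both control values. Bub1 lost its call without phorone replicate 2 and when its 2 probes were averaged (0.33), and Mad2l1 without that array or either control array. Bub1b (BUBR1) at 0.31 and Ttk (MPS1) at 0.20 were not called, with intervals from -0.03 to 0.66 and from -0.38 to 0.77.

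Cdc20, the activator of the APC/C that MAD2 restrains, read 3.32 and 3.30 in control and 4.18 and 4.20 in phorone. The arrays of a group nearly coincided, and the rise was 0.88 (SE 0.12, limma adjusted p = 0.0045), a 1.84-fold higher signal. The APC/C's ubiquitin-conjugating enzyme Ube2c had a change of -0.01 with an interval from -0.36 to 0.34, and its substrate Cdca3 a change of -0.19 with an interval from -0.65 to 0.27. Neither was called, and in both the groups overlapped.

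Of 6 centromere and kinetochore genes, 3 were called higher, where 24.3% of all genes tested were. Cenpe, the kinesin that carries chromosomes to the spindle equator, read 3.29 and 2.85 in control and 3.75 and 4.00 in phorone, a rise of 0.80 (SE 0.20, limma adjusted p = 0.0261). Ndc80, the microtubule-binding subunit that gives its complex its name, read -0.80 and -0.63 in control and -0.09 and 0.01 in phorone, a rise of 0.68 (SE 0.13, limma adjusted p = 0.0132). Cenpf, a large kinetochore and microtubule protein, read 1.82 and 1.73 in control and 2.13 and 2.32 in phorone, a rise of 0.45 (SE 0.13, limma adjusted p = 0.0463).

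The other genes of the NDC80 complex were not called, and their difference from Ndc80 was not tested. Nuf2, its direct partner, read 1.25 and 1.34 in control and 0.56 and 0.95 in phorone, a change of -0.54 just outside the threshold (limma adjusted p = 0.0545). Spc25 was at 0.27 (interval -0.15 to 0.68, which holds the change of Ndc80), with both phorone values above both control values, and Spc24, which is on the wider list, at -0.54 (limma adjusted p = 0.0517). Cenpa, the histone H3 variant of the centromere, was at 0.07 (interval -0.26 to 0.40) and not called. Cenpe, Ndc80 and Cenpf were also sensitive to single arrays: Cenpe was lost without control replicate 2 or either phorone array, Ndc80 without either phorone array, and Cenpf without any of the 4.

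Of 5 spindle motors and microtubule factors, 1 was called higher and 1 lower, where 24.3% and 21.3% of all genes tested were. Tpx2, the protein that activates Aurora A on spindle microtubules, read 1.56 and 1.79 in control and 2.35 on both phorone arrays. It rose by 0.68 (SE 0.14, limma adjusted p = 0.0143), a call lost without either phorone array and when all 5 kept probes were averaged (0.07). Of these 5 Tpx2 probes, 4 carried the same sequence, and each counted in that average. Nusap1, which bundles spindle microtubules, read 1.03 and 1.09 in control and 0.21 and 0.65 in phorone. It fell by 0.63 (SE 0.18, limma adjusted p = 0.0421), lost without any array other than phorone replicate 2 and not called on the spike-in scale (-0.19). The bipolar motor Kif11 at -0.34, the microtubule depolymerase Kif2c at 0.30 and the spindle protein Hmmr at -0.07 were not called.

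Of 6 genes of the central spindle and cytokinesis, 1 was called, where 45.5% of all genes tested were. Anln, anillin, the scaffold of the contractile ring, read -1.29 and -2.02 in control and -0.76 and -0.56 in phorone and rose by 1.00 (SE 0.27, limma adjusted p = 0.0328). Its control arrays lay far apart: the change was 1.37 without control replicate 1 and 0.64 without control replicate 2, and of the 4 arrays only control replicate 1 could be left out without losing the call. Ect2, the exchange factor that switches on RhoA at the division plane, read 1.16 and 0.43 in control and 1.53 and 1.69 in phorone, a change of 0.81 that missed the threshold (limma adjusted p = 0.0571). The motor Kif20a missed it as well, at 0.41 (limma adjusted p = 0.0623). The microtubule bundler Prc1 at 0.23, and the centralspindlin subunits Kif23 at 0.03 and Racgap1 at -0.35, were not called.

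Missing the threshold did not mark the 20 uncalled members as unchanged. The 95% confidence interval held 0 in 17 of them, and it stayed within a 2-fold change either way in 19 (all but Ect2). In 10 the groups did not overlap, which was common here. Over all 17033 genes tested, called or not, the groups overlapped in only 3760. The share without overlap among uncalled genes alone was not counted.

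**Figure D2:**
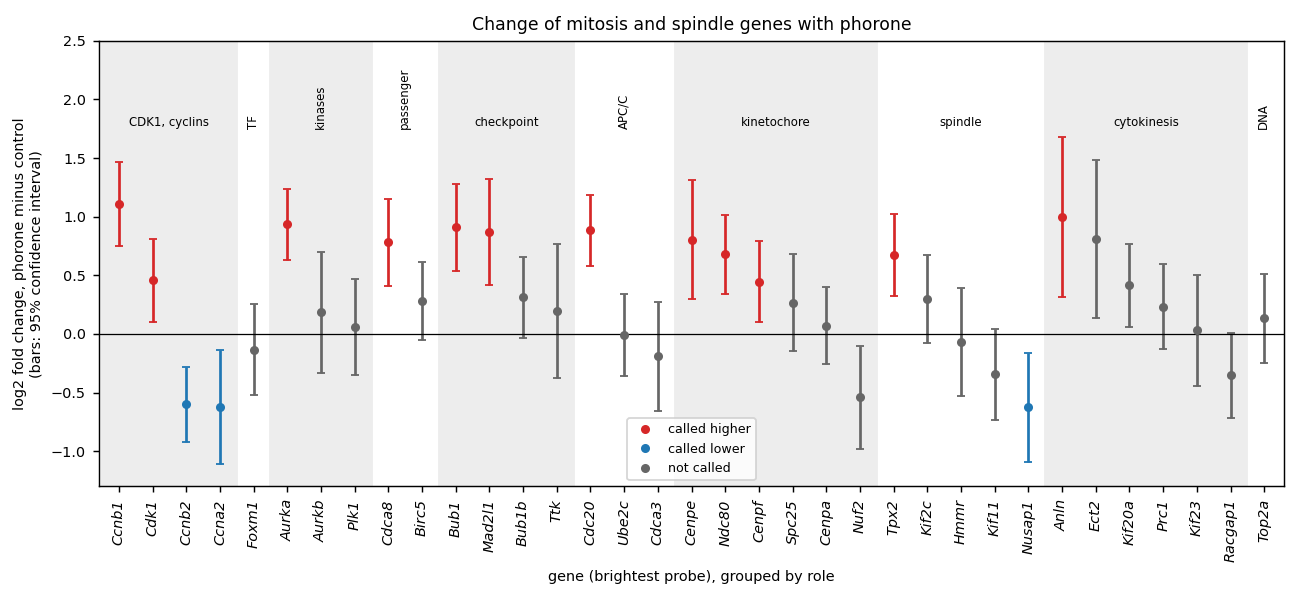
Log2 fold change (phorone minus control) of each of the 35 genes, brightest probe, with its 95% confidence interval from limma; red points were called higher, blue lower and grey neither. The 12 genes called higher run from 0.45 (Cenpf) to 1.11 (Ccnb1) and the 3 called lower lie near -0.6.

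Several genes were read by more than 1 probe, and their probes did not always move alike. Of 56 kept probes 16 were called higher and 4 lower, against a background of 25.5% and 20.3% of the 24207 gene probes tested, of which 45.8% were called either way. In the fit of all probes Cdk1 was not called. Among 14 members with several kept probes, both probes of Cdca8 were called higher (0.78 and 0.89), both of Ccnb2 lower (-0.60 and -0.82), and 2 of 3 of Cenpe higher (0.80 and 0.56, with 0.17 on the third). No member had probes called in opposite directions.

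Cyclin B1 and Tpx2 show the disagreement, and the first 30 of the 60 bases of their probes, 5′ to 3′ as the files give them, identify which probe is meant. All letters are in lower case, because no motif was looked for in them.
Ccnb1, probe A: gtacataggatacctaccatgtttacttgc
Ccnb1, probe B: gctggcacagctgaactgtacactagttca
Ccnb1, probe C: acagtggatccaactaatgtatatatctgt
Ccnb1, probe D: acagtattcctatcagcattccttacaatg
Tpx2, probe A: cgccatgtttggaaacacacctgataacta
Tpx2, probe B: gcccagtgcaaaggcatgtatttcaactta
Probe A of Ccnb1 was on the array under 2 names with the same sequence, and these gave 1.11 and 1.13. Probe B also rose, by 0.92 (SE 0.16), from 0.06 and 0.34 in control to 1.03 and 1.22 in phorone. Probe C was at 0.18 (SE 0.15) and probe D at -0.24 (SE 0.23), and neither was called. Probe D read -0.17 and 0.32 in control and -0.36 and 0.04 in phorone, so its groups overlapped. The files assign probe A to predicted transcript records and the other 3 to the curated Ccnb1 record, so whether all of them read the same transcript is not known here.

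For Tpx2, the bright probe A rose by 0.68, and probe B, placed on the array under 4 names with the same sequence, gave between -0.18 and -0.04 in its 4 copies. These 4 copies put an error on a single value of this dim probe: their SD was between 0.10 and 0.28 on an array. For the 2 copies of the brighter Ccnb1 probe A, the SD was between 0.0024 and 0.037. The files assign probe B to transcript records other than that of probe A. Averaging all kept probes of a gene left a change of 0.07 for Tpx2 and 0.33 for Bub1, neither called, 0.62 for Ccnb1 and 0.58 for Anln, both still called, and 0.22 for Racgap1, where the brightest probe gave -0.35 and neither value was called. The dimmer probe of Anln was at 0.16. In the averages each copy of a sequence counted as a probe of its own. Such copies were 4 of the 5 kept probes of Tpx2 and 2 of the 5 of Ccnb1.

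A test of the difference between the brightest and each other probe of a gene, in which the scaling of the arrays cancels, was added after these values had been seen. Over all genes, 21.5% of 7174 such pairs differed (limma adjusted p below 0.05). Of 21 member pairs 6 did, in 4 genes, close to that background share. The 21 pairs were not all distinct comparisons. They include Ccnb1 probe A against its own copy, and Tpx2 probe A against each of the 4 copies of probe B. The differences were 1.35 and 0.93 for Ccnb1 (probe A minus probes D and C, limma adjusted p = 0.0134 and 0.0119), and 0.85 and 0.75 for 2 of the 4 copies of Tpx2 probe B (limma adjusted p = 0.0276 and 0.0328). They were 1.16 for Bub1, whose second probe was at -0.25 (limma adjusted p = 0.0122), and -1.15 for Racgap1, whose dimmer probe was called higher at 0.80 (limma adjusted p = 0.0241). With an array left out, the share of all pairs that differed was not counted. The member counts that follow thus have no background and show nothing particular to these genes. The number of member pairs was 7 without control replicate 1, 5 without control replicate 2, and 0 without either phorone array.

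**Figure D3:**
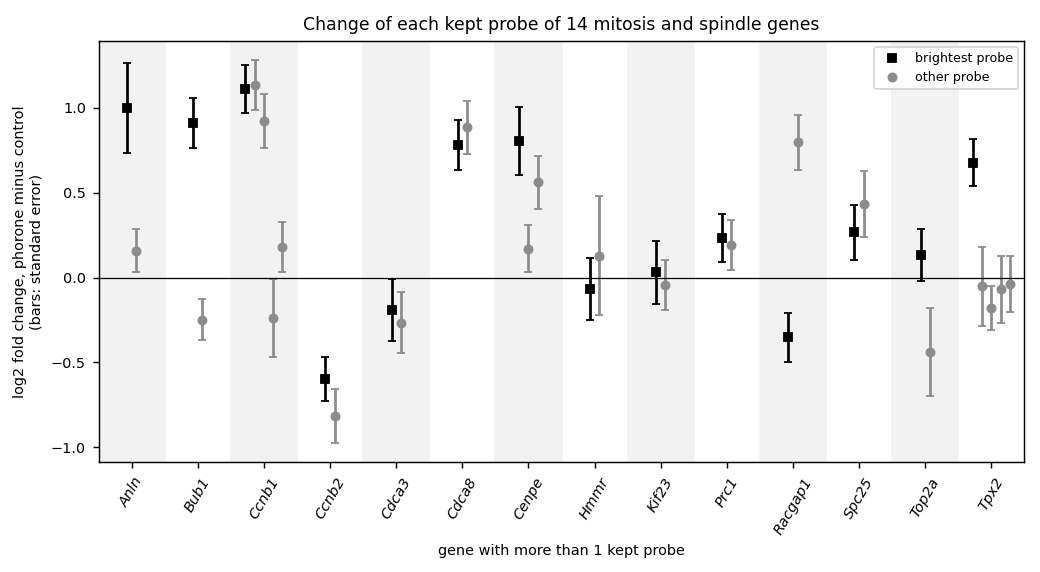
Log2 fold change (phorone minus control, bars: standard error) of every kept probe of the 14 genes with more than 1; black squares are the brightest probe, grey circles the others. Bub1, Ccnb1, Racgap1 and Tpx2 have probes well apart, while the probes of Ccnb2, Cdca8 and Prc1 lie together.

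The members also moved together between the phorone arrays. In 34 of 35 members (97.1%) phorone replicate 2 read higher than phorone replicate 1, Tpx2 being the exception, whereas 50.7% of all genes tested did. The median difference between these arrays was 0.20 for the members and 0.003 for all genes. Between the control arrays, replicate 2 was the higher in 23 members (65.7%), against 54.7% of all genes. Phorone replicate 2 was also the higher in 23 of 23 replication licensing genes, 95 of 130 other mitosis genes (73.1%), 10 of 18 G1 genes (55.6%) and, within the other mitosis genes, 5 of 15 APC/C subunits (33.3%). Phorone replicate 2 had the lowest share of spots well above background (51.1%), the highest floor (-4.55 for the dimmest probe well above background, against -4.82 to -4.79) and the lowest spike-in signal (2.55 above the 75th percentile, against 2.74 to 3.41). The part of these in the members' difference was not tested.

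Other genes of the pathway came from a list of 133 further mitosis genes, of which 130 were measured. Of these 52 were called higher, 8 lower and 70 neither, with a median change of 0.30, beside 0.27 for the members. Without phorone replicate 2 the numbers called were 18 and 2, without phorone replicate 1 they were 33 and 1, without control replicate 2 they were 38 and 2, and without control replicate 1 they were 48 and 5. On the spike-in scale they were 36 and 1, and the median was 0.74. By subgroup, 20 higher and 2 lower were called of 35 kinetochore and centromere genes, 16 and 2 of 33 spindle and centrosome genes, and 9 and 1 of 20 genes of mitotic entry and exit. The numbers were 4 and 1 of 19 genes of cohesion and condensation, 2 and 2 of 15 APC/C subunits, and 1 and 0 of 8 cytokinesis genes. Differences between subgroups were not tested. With the main settings 45.5% of all genes were called, 24.3% higher and 21.3% lower. For the spike-in scale and the left-out arrays, no share of all genes called was set beside the list's counts.

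The largest rises in that list were those of Haus6 by 1.69 (SE 0.20, limma adjusted p = 0.00345), a subunit of the augmin complex that branches spindle microtubules, Sgo2a by 1.55, which protects centromeric cohesin, and Wapl by 1.52, which releases cohesin from chromosomes. The largest falls were those of the centromere protein Cenpm by 1.76 (SE 0.19, limma adjusted p = 0.00273), the APC/C inhibitor Fbxo5 (EMI1) by 0.72 and the small APC/C subunit Anapc13 by 0.70. Wapl was at 0.89 averaged over its probes. Fbxo5 lost its call without control replicate 1 or phorone replicate 1 and Anapc13 without control replicate 2 or either phorone array, and neither was called on the spike-in scale (-0.29 and -0.26).

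The neighbouring phases of the cell cycle were set beside the members. All 23 replication licensing genes, which load and start the replicative helicase, were measured. Of these 19 (82.6%) were called higher and none lower, with a median change of 0.74, where 24.3% and 21.3% of all genes were called. Orc1, of the origin recognition complex, rose by 1.71, the loading factor Cdt1 by 1.55, and Dbf4, which activates the kinase CDC7, by 1.41. On the spike-in scale 14 were called higher, with a median of 1.17, and Orc1 was at 1.03 after normexp background correction. Fewer were called without single arrays: 17, 13, 10 and 6 without control replicates 1 and 2 and phorone replicates 1 and 2. Of 18 measured G1 cyclins, kinases and inhibitors, 4 (22.2%) were called higher and 7 (38.9%) lower, with a median of -0.34. The share called higher was thus near that of all genes. Neither list was tested against these shares. Ccnd1, cyclin D1, fell by 2.03 (from 3.45 and 3.72 to 1.57 and 1.54), the CDK4 inhibitor Cdkn2c by 1.25 and Ccnd2 by 0.98. Cdk2 rose by 1.55, Ccne2 by 0.80 and Rbl1, p107, by 0.67. The Cdk2 probe was dim, from -4.22 and -4.16 in control to -2.66 and -2.61 in phorone. The dimmest probes well above background on the control arrays read -4.82 and -4.80. Cdk2 was at 0.70 averaged over its probes and, without phorone replicate 1, at 0.33 and not called, since the probe that stood for it was chosen anew from the 3 arrays left. Ccne2 and Rbl1 lost their calls without either control array or phorone replicate 2, and Cdkn2c and Ccnd2 on the spike-in scale. Without control replicates 1 and 2 and phorone replicates 1 and 2 in turn, 1, 1, 2 and 1 were called higher and 8, 6, 5 and 3 lower. On the spike-in scale the G1 list had 2 called higher and 1 lower, and its median was 0.10 in place of -0.34. For neither list was the share of all genes called under these other settings set beside the counts.

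**Figure D4:**
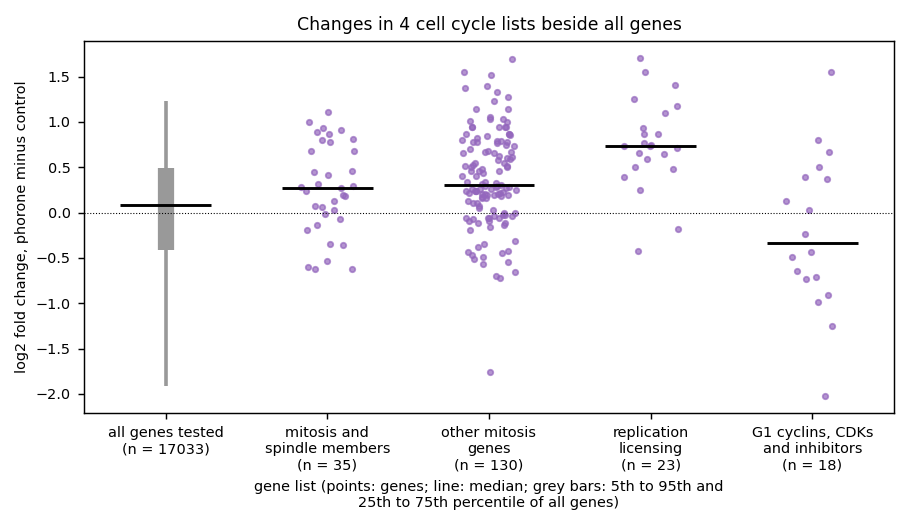
Log2 fold changes (phorone minus control) of the 35 members, 130 further mitosis genes, 23 replication licensing genes and 18 G1 genes (points: genes; black line: median) beside the 5th to 95th and 25th to 75th percentiles of all 17033 genes tested (grey bars). Medians are 0.27, 0.30, 0.74 and -0.34, against 0.084 for all genes.

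The arrays and the cells behind these values were checked against the labels. The share of spots well above background ran from 51.1% to 52.7% over the arrays, none was saturated, and the number of arrays limits the precision. The control group occupied row 1 and the phorone group row 2 of the same slide, so the effect of the row cannot be told apart from that of phorone. All 8 fibroblast markers were well above background on all 4 arrays, and their summed linear level, in multiples of the 75th percentile, was 952 and 995 in control and 520 and 553 in phorone. Of the 8, 5 were called lower and none higher: Col3a1 (log2 change -3.38), Pdgfra (-2.98), Pdgfrb (-1.51), Col1a2 (-1.12) and Thy1 (-0.46). Vim (-0.36), Col1a1 (-0.30) and Fn1 (-0.08) were not called. Summed levels of the endothelial, epithelial, leukocyte, muscle and neural lists were far lower, from 0.02 to 0.76; the leukocyte list read 0.34 and 0.36 in control and 0.55 and 0.76 in phorone, and the muscle list 0.42 and 0.43 against 0.14 and 0.17. All 4 arrays were well above background for 0 of 3 endothelial, 1 of 4 epithelial (Krt8), 2 of 4 leukocyte (Cd68 and Cd3e), 1 of 3 muscle (Des) and 1 of 3 neural markers (Tubb3), and the defining Ptprc, Cdh1, Cdh5, Rbfox3 and Myog were above background on none. The part of these marker changes in the mitosis results was not tested.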

How the data were processed

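Total RNA of 2 control and 2 phorone samples was labelled with Cy3, 1 sample to an array. The scanner files deposited hold intensity per spot, written per the file headers by version 10.7.3.1 of Agilent's Feature Extraction (probe positions on mm9, not used) as a processed signal with the background subtracted and no scaling between arrays. A table of log2 values deposited by the authors was set against the scanner values: each column was the log2 processed signal minus 1 number per array (SD around it at most 0.0195), close to the 75th percentile, with column medians of -4.39, -4.35, -4.37 and -4.30.

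Here log2 processed signals minus each array's 75th percentile over probes outside the controls were used, spots flagged as outliers were dropped (71 gene probes lost), and a probe was kept if well above background on both arrays of a group. Of 40628 gene probes, 28128 (69.2%) were named through a RefSeq table (GRCm38.p6) and the rest by the array design; 20679 probes for noncoding transcripts stayed out. The phorone and control groups were tested against each other in limma 3.58.1 (R 4.3.3, lmFit and eBayes, 2 residual and 3.03 prior degrees of freedom, two-sided), and the code was tested on simulated data. Intervals are at 95% confidence. The slide and the scan were the same for all arrays. Alternatives were other scalings, background correction, filters, probe rules, the deposited table, single arrays left out, a replicate block and no moderation.

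The members and lists were chosen with earlier results of these data known. All members are named, with values on every array for those called and for Cdk1, Ccnb1, Plk1, Foxm1 and Cdc20, and, from each other list, up to 3 called genes each way with the largest change. Members near the threshold, Spc24 and probes that disagreed were given values after these had been seen.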

Additional observations from a re-analysis of the deposited data

How the results depend on the processing

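Counts below are genes called higher, then lower; with all 4 arrays and the main settings they were 12 and 3 of the members, 16 and 4 of their probes, 52 and 8 of the wider mitosis list, 19 and 0 of the licensing list, and 4 and 7 of the G1 list. With spike-in scaling, members called lower were 0, probes lower 0, wider list lower 1, and G1 genes 2 and 1; the spikes themselves differed between the control arrays, by 2.76 and 3.41 above the 75th percentile, against 2.74 and 2.55 on the phorone arrays. Without a filter on dim probes the numbers were 5 and 0 for members, 9 and 1 for probes, 21 and 1 for the wider list, 8 higher for licensing, and 1 and 4 for G1. With noncoding probes in the fit, members lower were 1, probes lower 2, wider list lower 5 and G1 higher 2. Without moderation of the variances they were 2 and 0 for members, 2 and 1 for probes, 4 and 1 for the wider list, 1 higher for licensing, and 1 and 0 for G1. The 75th percentile over detected probes gave 2 G1 genes higher. The licensing list had 1 gene lower with quantile normalisation, median scaling, the percentile of detected probes, normexp, the strict filter and the mean of probes. Leaving out 1 array at a time, in which the lone array is assumed to vary like the other group, gave 3 to 11 and 0 to 1 for members, 6 to 16 and 0 to 3 for probes, 18 to 48 and 1 to 5 for the wider list, 6 to 17 higher for licensing, 1 to 2 and 3 to 8 for G1, and 0 to 7 differing probe pairs. Adding the replicate block gave 11 and 3 for members, 15 and 4 for probes, 45 and 6 for the wider list, 16 and 0 for licensing, and 3 and 6 for G1; same-numbered arrays did not deviate together (r = -0.02 over 17033 genes), so the numbers were not taken to pair samples, and replicate number was also the column of the slide. TTTGAA was in 31.3% of member windows before the start and in 78.1% of whole windows. Aurka and Cdc20 stayed called higher under all 17 alternatives, Ccnb1 under 16 and Cdca8 under 15; Cdk1 and Cenpf lost their call under 12, Ccna2 under 9, Nusap1 under 7 and Ccnb2 under 5. No called member changed direction under any alternative. For a gene with several probes, such as Ccnb1, the alternatives used its brightest kept probe, except where its probes were averaged. The share of all genes, or of all probe pairs, called under each alternative was not set beside these counts. The causes were not tested.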
